A study of Mus musculus with 12 samples.

Results

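Meg3, Rian and Mirg are 3 long noncoding RNA (lncRNA) genes that lie in a row on the plus strand of mouse chromosome 12, in the imprinted domain between Dlk1 and Dio3. Their members here were taken from the deposited lncRNA table as every transcript that carries 1 of these 3 gene names, which gave 51 transcripts of 31549 in the table (17 of Meg3, 19 of Rian and 15 of Mirg). Of the 51, 40 had a mean of at least 0.1 FPKM and were tested (13, 17 and 10), among 9408 tested transcripts in all. FPKM is a fragment count scaled to the length of the transcript and to the size of the library. The level of a gene is given below as the sum of FPKM over its transcripts, its gene sum. The RNA came from the basolateral amygdala, a brain region needed for learned fear, of male C57BL/6J mice aged 10 weeks, with 3 mice and 3 libraries in each of 4 groups. Fear conditioned mice (F) heard a tone paired with foot shock, and control mice went through the same session without shock. Extinction mice (E) were conditioned and on the next day heard the tone again and again without shock, and retrieval-extinction mice (RE) were given a single reminder tone before that extinction training. Tissue was taken after conditioning in control and F and after the last extinction session in E and RE, so that wherever E or RE is set against control or F, the training and the day cannot be told apart. The counting may or may not have used the strand of the reads, which is not given in the sources used here.

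In an imprinted domain, the copy from 1 parent is silent. From the maternal chromosome the domain of mouse chromosome 12 transcribes noncoding RNAs, among them Meg3, Rian and Mirg, and from the paternal chromosome it transcribes the protein-coding genes Dlk1, Rtl1 and Dio3. A methylated region upstream of Meg3 on the paternal copy controls this choice. Meg3, also called Gtl2, is a nuclear RNA abundant in neurons and the pituitary. Rian carries a large array of C/D box small nucleolar RNAs in its introns, and Mirg is a host of one of the largest clusters of microRNAs in the mouse, many of which are made in brain. None of these small RNAs was analysed here, and the values below are those of the long host transcripts. The tables do not separate the parental copies.

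Meg3 (ENSMUSG00000021268) occupies chr12:109540996-109571729, Rian (ENSMUSG00000097451) chr12:109603882-109661902 and Mirg (ENSMUSG00000097391) chr12:109719392-109749460 in the mm10 build, as the table gives them. Of the Meg3 models with known exons, 5 start within a few bases of the first promoter and 2 start at a second one downstream at position 109545398, and the measured transcripts are divided between these starts below. For this reason both promoters are shown, from 250 bases before to 50 after the start, as RefSeq places them on GRCm38 (mm10). Capitals mark the palindromic cAMP response element TGACGTCA and the TATA box motif TATAAA, each searched on both strands.
Meg3, first promoter, chr12:109540746-109541045, plus strand: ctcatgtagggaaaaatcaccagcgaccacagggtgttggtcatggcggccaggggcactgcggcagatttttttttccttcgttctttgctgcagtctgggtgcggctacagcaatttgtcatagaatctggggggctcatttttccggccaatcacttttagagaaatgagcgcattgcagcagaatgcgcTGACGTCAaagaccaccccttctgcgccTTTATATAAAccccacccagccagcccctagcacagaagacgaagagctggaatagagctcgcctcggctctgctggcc
Meg3, second promoter, chr12:109545148-109545447, plus strand: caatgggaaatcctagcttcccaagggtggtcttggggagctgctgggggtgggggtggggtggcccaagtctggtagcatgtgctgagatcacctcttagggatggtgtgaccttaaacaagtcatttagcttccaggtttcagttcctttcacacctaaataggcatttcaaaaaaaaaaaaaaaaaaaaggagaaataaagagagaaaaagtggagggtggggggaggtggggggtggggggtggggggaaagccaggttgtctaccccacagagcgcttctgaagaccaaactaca
The first promoter holds 1 match to TGACGTCA that begins 57 bases before the start, and overlapping matches to TATAAA on the plus strand and on the minus strand that begin 25 and 29 bases before it. The second holds neither. Among 32851 mouse promoter windows of 300 bases in the same RefSeq table, 1.79% hold TGACGTCA and 13.6% hold TATAAA. The first promoter holds 13 CpG dinucleotides and the second 1, against a median of 7 over all windows. The Rian window (chr12:109603695-109603994) holds 0 CpG and neither TGACGTCA nor TATAAA. A match is a description of the letters and was not tested as a site. Promoter here means the window around an annotated transcript start, and whether transcription begins at either Meg3 start was not tested.

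The microRNAs that lie inside the transcripts measured here show what these RNAs host. By RefSeq positions, 3 mature microRNAs from 2 hairpins lie within tested Ensembl transcripts of Meg3, 6 from 3 hairpins within those of Rian and 26 from 14 within those of Mirg. All 3 of Meg3 and 8 of the 26 of Mirg lie in an exon of at least 1 transcript, and all 6 of Rian are intronic. Both mmu-miR-770-5p and mmu-miR-770-3p lie in an exon of only 1 of the 3 Meg3 transcripts that span them. The labels below name an exon on this rule. Examples from each host follow, with the seed (bases 2 to 8) in capitals, the part of a microRNA that pairs with its targets.
mmu-miR-770-5p, Meg3 exon: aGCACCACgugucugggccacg
mmu-miR-370-3p, Rian intron: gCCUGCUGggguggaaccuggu
mmu-miR-134-5p, Mirg exon: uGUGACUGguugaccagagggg
mmu-miR-154-5p, Mirg intron: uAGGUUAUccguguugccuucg
mmu-miR-410-3p, Mirg exon: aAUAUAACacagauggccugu
These 5 were picked for their place in the hosts and have different seeds. The miR-134 of this set is known in rat hippocampal neurons for limiting the size of dendritic spines. Among all the mature microRNAs within the 3 hosts, only mmu-miR-453 and mmu-miR-496a-5p, both of Mirg, share a seed.

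The depth was 7637275 to 23139580 mRNA fragments and 1281108 to 3027470 lncRNA fragments per library. Of the lncRNA fragments, 41795 to 112604 per library were assigned to Meg3, 5828 to 15884 to Rian and 669 to 1702 to Mirg, so that the level of Mirg rests on the fewest. Libraries did not scatter evenly. In a principal component analysis of tested lncRNA transcripts outside the Dlk1 to Dio3 domain, the first component (15.3% of the variance) set control 2, F 1, E 2 and RE 4 apart, with scores of 29.3 to 74.7 against -43.5 to -10.9 for the other 8. Each group holds 1 of these 4 libraries, and the labels give no batch. The FPKM of the whole lncRNA table summed to 165559 to 186102 in the 4 libraries and to 213687 to 346428 in the other 8, without overlap. The tissue carried its neuronal markers, with a list of pan-neuronal genes summing to 2084 to 2503 FPKM. Genes of the hypothalamus, a list of 12, summed to 139.9 to 332.9 FPKM in the 4 libraries and to 48.0 to 163.2 in the other 8. Most of the sum came from Hap1 (mean 77.5 FPKM) and Ahi1 (47.5), which other neurons also express. Among the peptide genes, Agrp and Hcrt had means of 0.077 and 0.052 FPKM, and Avp, Trh and Oxt 5.83, 3.14 and 2.41. Baiap3 ran from 9.07 to 36.1 FPKM in the 4 libraries and from 1.98 to 10.1 in the other 8, and Gal from 0.211 to 5.03 and from 0 to 0.559. Avp went the other way at its highest, with up to 7.43 FPKM in the 4 and 27.3 in the 8, as did Oxt (6.89 and 8.42). Genes of the striatum, another brain region, also varied widely, with sums of 110.6 to 531 FPKM in the 4 libraries and 217 to 747 in the other 8. They were lowest in control 2 (110.6) and F 1 (121.8) and highest in RE 3, while E 2 was at 531. Oligodendrocyte genes summed to 564 to 1130 FPKM in the 4 and to 612 to 1713 in the 8. The part of tissue composition in the results was not tested, and in bulk tissue fewer cells of a type and less RNA per cell cannot be told apart.

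All 3 genes were among the most abundant in the lncRNA table, and their levels followed the order of their position from Meg3 to Mirg. Meg3 had a mean gene sum of 844 ± 144 FPKM (SD, n = 12 libraries) and ranked 16 among 24522 gene names of the table. Rian had 379.6 ± 52.8 FPKM and ranked 25, and Mirg had 44.0 ± 5.90 FPKM and ranked 67. FPKM is per length, so these levels can be set beside each other. The ranges over libraries did not overlap between the genes, since Meg3 was never under 675 FPKM, Rian lay between 297.9 and 499, and Mirg was never over 52.9. In each library there was 1.89 to 2.46 times as much Meg3 as Rian and 15.6 to 24.6 times as much Meg3 as Mirg. Over the 12 libraries the highest sum was 1.78 times the lowest for Meg3, 1.67 times for Rian and 1.56 times for Mirg.

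Meg3 was at 789, 1199 and 819 FPKM in control 1, 2 and 3. It was at 1045, 813 and 833 FPKM in F 1, 2 and 3. In E 1, 2 and 3 it was at 779, 876 and 756 FPKM, and in RE 3, 4 and 5 at 675, 826 and 723 FPKM. The highest library of every group was 1 of the 4 that stood apart, and every pair of groups overlapped. The group means ran in the order control (935 ± 229 FPKM, SD, n = 3), F (897 ± 128), E (804 ± 63.7) and RE (741 ± 77.2), and no neighbours in that order differed beyond their spread.

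Rian was at 344, 499 and 339 FPKM in control, 425, 359 and 371 in F, 383, 383 and 367 in E, and 351, 438 and 297.9 in RE, in the same library order. The E libraries lay close together, and those of control and RE were spread much more widely. Again the highest library of each group was 1 of the 4, although in E by a margin that disappears on rounding. The means were 394 ± 90.7 FPKM in control, 385 ± 35.2 in F, 378 ± 8.87 in E and 362 ± 70.7 in RE, which all overlapped.

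Mirg was at 37.6, 48.7 and 40.7 FPKM in control, 52.9, 39.0 and 46.1 in F, 50.1, 50.8 and 40.1 in E, and 33.9, 43.9 and 43.7 in RE. Its order of means was another one, with E (47.0 ± 5.99 FPKM) and F (46.0 ± 6.94) above control (42.3 ± 5.70) and RE (40.5 ± 5.76). All groups overlapped for Mirg as well.

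**Figure D1:**
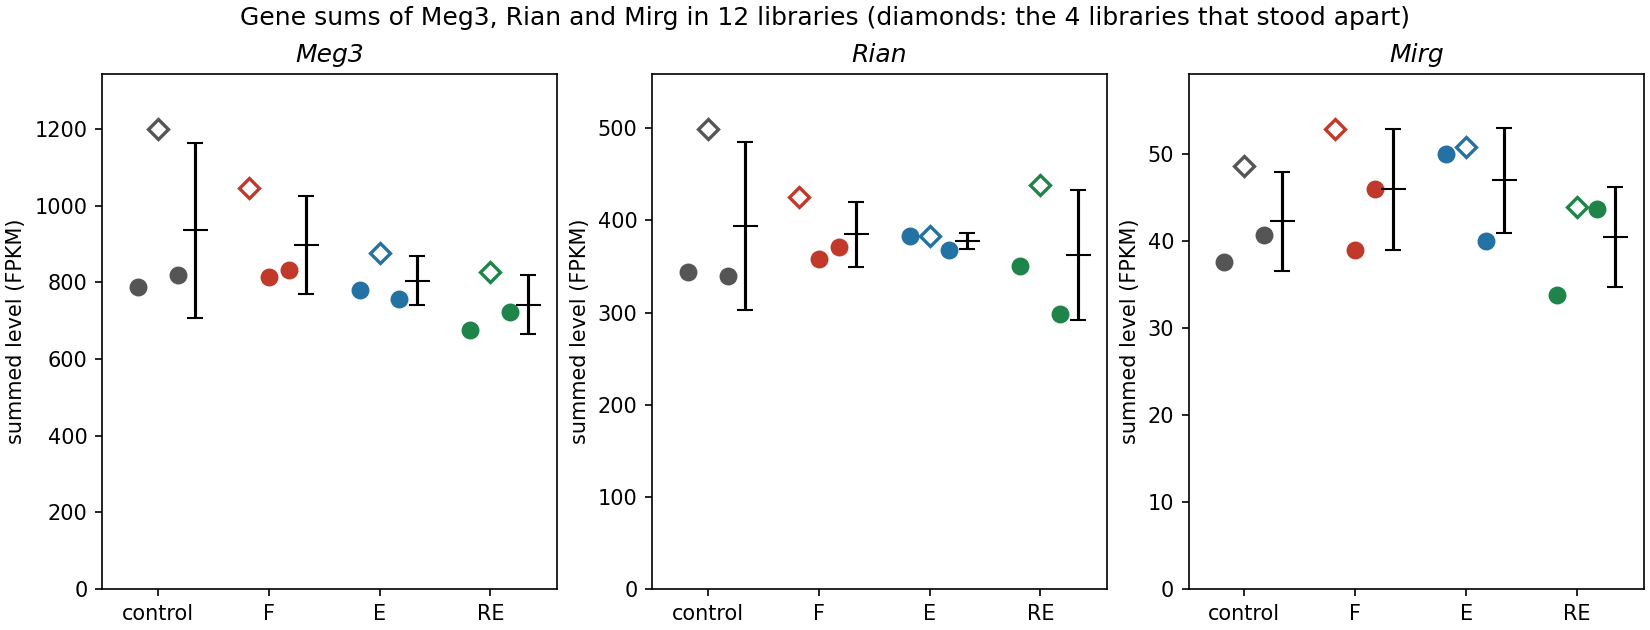
Gene sums of Meg3, Rian and Mirg in FPKM (linear axes from 0) for each library, by group, with the group mean and SD (n = 3) as a bar to the right of its points. Open diamonds are control 2, F 1, E 2 and RE 4, which hold the highest value of every group for all 3 genes.

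None of the 3 gene sums differed between groups in any of 6 contrasts. With limma on log2(FPKM + 0.1), fitted over the 7910 lncRNA genes whose mean reached 0.1 FPKM and adjusted over all of them, the smallest adjusted p of the 18 values was 0.826, for Meg3 in RE against control. Without control 2, the highest Meg3 library of all, this difference was -0.12. With all libraries it was -0.31 ± 0.19 (log2, SE; 95% interval -0.74 to 0.11; unadjusted p = 0.13). The next largest was Meg3 in RE against F, at -0.27 ± 0.19 (-0.69 to 0.15; adjusted p = 0.933). For Meg3 in F against control, the comparison that bears on forming the memory, the difference was -0.04 ± 0.19 (-0.47 to 0.38). For Rian the differences lay between -0.12 ± 0.19 (RE against control) and -0.01 ± 0.19 (F against control). Quantile normalization moved these, to -0.37 in F against control, -0.63 in E against control and -0.37 in RE against control (adjusted p = 0.971, 0.998 and 0.866). For Mirg they lay between -0.22 ± 0.17 (RE against E; -0.59 to 0.16; adjusted p = 0.862) and 0.15 ± 0.17 (E against control; -0.23 to 0.53; adjusted p = 1). The moderated F test over the 4 groups gave an adjusted p of 0.921 for Meg3, 0.994 for Rian and 0.952 for Mirg. Among all 7910 genes, 0% passed in each contrast except RE against E, in which 0.164% did. At an unadjusted p under 0.05, 0 of the 18 values passed, where 4.51% of all genes did in F against control, 4.55% in E against control, 6.64% in RE against control, 7.85% in RE against E, 7.02% in E against F and 5.21% in RE against F. Groups overlapped for all 18 values, where they did not for 8.87%, 9.54%, 11.9%, 13.1%, 12.8% and 10.2% of all genes in the same order. A test with edgeR, run on fragments recovered from the scaled values, also passed 0 of the 18. Differences within the intervals given were not detectable with 3 mice per group.

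**Figure D2:**
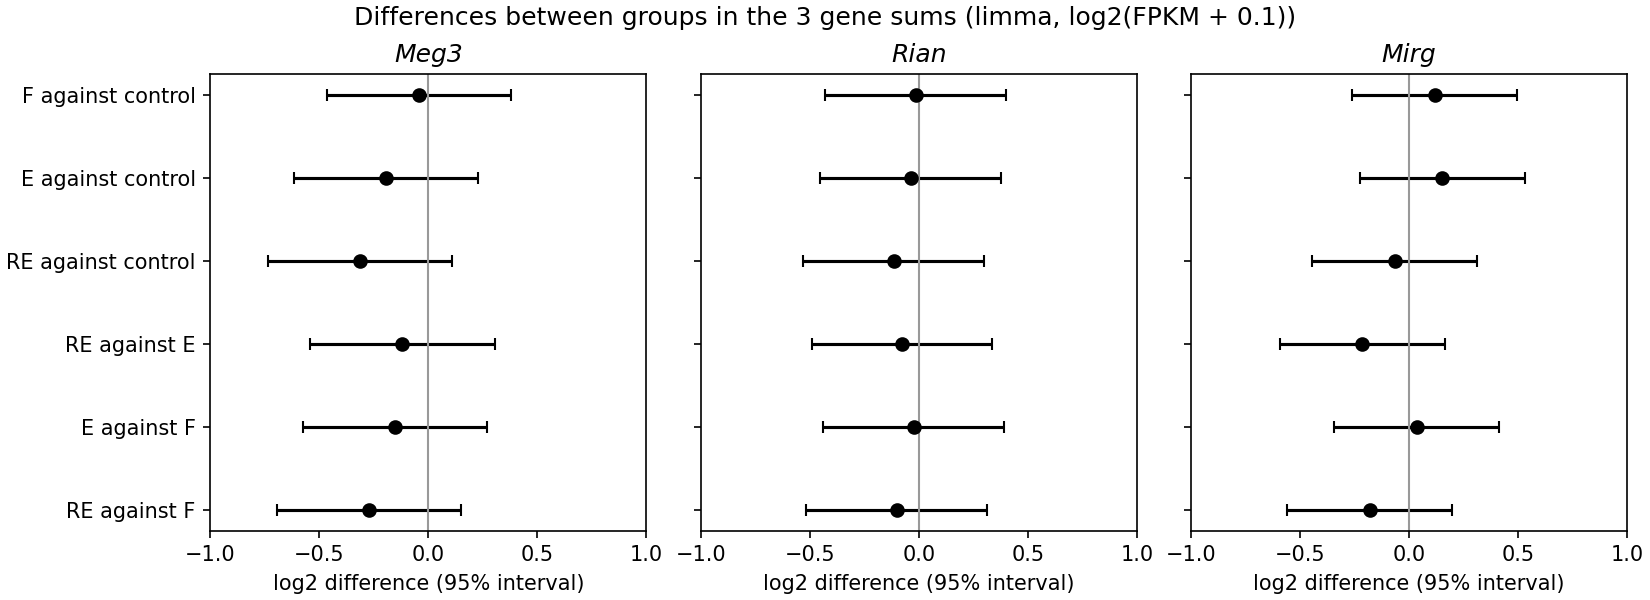
Difference between groups (first minus second named) in the gene sums of Meg3, Rian and Mirg on the log2(FPKM + 0.1) scale, with 95% intervals from limma over 12 libraries. Every interval includes 0.

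Much of the spread within groups followed the 4 libraries. Each group holds 1 of the 4, so a term for them in the fit cannot change a difference between groups, only its SE and p. With that term, chosen after seeing the data, the Meg3 difference of RE against control stayed at -0.31. It had an SE of 0.10 in place of 0.19 (interval -0.55 to -0.08). Its unadjusted p was then 0.0135 and its adjusted p 0.435, so it still did not pass. Fitted on the other 8, 2 per group, it was -0.20 ± 0.11 (adjusted p = 0.771). Meg3 ran from 826 to 1199 FPKM in the 4 libraries (median 961) and from 675 to 833 in the other 8 (median 784). Rian ran from 382.7 to 499 FPKM (median 431) and from 297.9 to 382.7 (median 355), so that its ranges touched without overlapping, and Mirg from 43.9 to 52.9 (median 49.7) and from 33.9 to 50.1 (median 40.4). As a share of all lncRNA fragments, Meg3 took 4.23% to 5.63% in the 4 libraries and 2.94% to 4.53% in the other 8.

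The transcripts divide each gene unevenly. For Meg3 the 2 of highest level held 50.5% of the gene sum, for Mirg 57.7%, and for Rian 41.4%. NR_003633 of Meg3, a RefSeq model of 11439 nt and 5 exons that starts at the second promoter, was the highest of all. It ran from 225 to 341 FPKM in control, 237 to 289 in F, 222 to 252 in E and 183 to 227 in RE, so that RE just reached into control and lay below all F libraries. Its difference of RE against control was -0.37 ± 0.18 (unadjusted p = 0.0606, adjusted p = 0.833), and it also had the smallest F test p among Meg3 transcripts (0.24, adjusted p = 0.938). ENSMUST00000129245, a Meg3 transcript of 1498 nt and 3 exons from the first promoter, had a mean of 179 FPKM. Its share of the gene sum was between 19.99% ± 3.01 in F and 21.5% ± 4.17 in RE (SD, n = 3), and that of NR_003633 between 28.6% ± 2.45 in RE and 30.002% ± 2.09 in E, so both shares moved by less than their spread between groups. The share of ENSMUST00000146701 (14548 nt), the other transcript from the second promoter, was 6.01% to 6.59% in control, 5.69% to 7.24% in F, 7.01% to 7.59% in E and 8.06% to 8.40% in RE. RE thus lay above every library of the other groups for this share, while the level of the transcript was 58.5 ± 11.9 FPKM in control and 60.9 ± 5.11 in RE (SD, n = 3; log2 difference 0.07 ± 0.16, adjusted p = 0.982). It was picked after its values were seen, and no test was run on shares. Over the 40 tested members, shares did not overlap between groups for 4 in F against control (8.72% of 2547 tested transcripts of genes with several transcripts), 4 in E against control (8.28%), 5 in RE against control (8.09%), 2 in RE against E (6.52%), 1 in E against F (8.68%) and 2 in RE against F (7.18%).

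For Rian the highest were ENSMUST00000182981 (1219 nt, mean 120.8 FPKM, range 85.4 to 170.3) and ENSMUST00000182119 (329 nt, 36.3 FPKM, 27.0 to 49.4). The first lies toward the 3′ end of the locus and the second at its start. For Mirg they were ENSMUST00000181496 (1906 nt, 14.3 FPKM, 11.1 to 16.8) and ENSMUST00000182300 (694 nt, 11.1 FPKM, 7.58 to 14.98). The 11 transcripts not tested were near 0, with means of at most 0.044 FPKM. The cuffdiff program divides reads among overlapping transcripts by an estimate, and some of these estimates are near 0 in 1 library and several FPKM in the next, so the level of a single transcript is less certain than that of its gene.

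**Figure D3:**
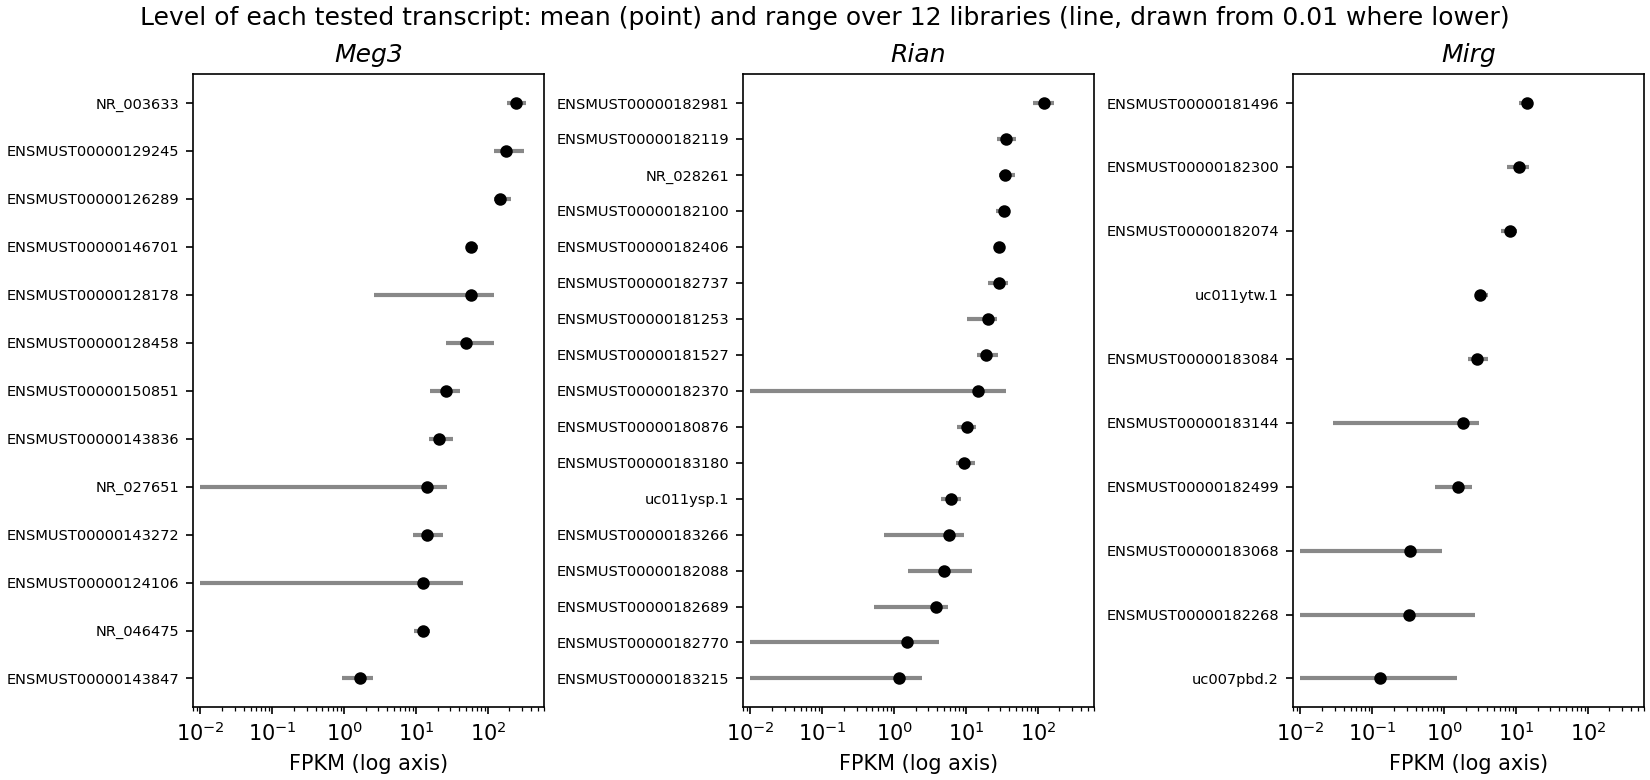
Mean (point) and range over 12 libraries (line) of each tested transcript of Meg3 (13), Rian (17) and Mirg (10), in FPKM on a log axis. Lines are drawn from 0.01 where the lowest value is smaller, and a few transcripts, such as ENSMUST00000124106 and NR_027651 of Meg3, run from near 0 to over 20 FPKM.

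No member transcript passed the adjusted test in any of the 6 contrasts, and the smallest adjusted p was 0.522. Among all 9408 transcripts 0.0531% passed in RE against E and 0% in the other contrasts. At an unadjusted p under 0.05 there were 1 of 40 in F against control (4.13% of all transcripts), 0 in E against control (4.42%), 1 in RE against control (6.2%), 0 in RE against E (7.16%), 1 in E against F (6.59%) and 2 in RE against F (4.86%). These shares are near or under those of all transcripts. All of them were Rian transcripts (ENSMUST00000182689, NR_028261 and ENSMUST00000182770). Groups did not overlap for 3 of 40 members in F against control (8.96% of all transcripts), 0 in E against control (9.22%), 3 in RE against control (11.5%), 0 in RE against E (11.9%), 1 in E against F (12.5%) and 3 in RE against F (9.65%). The median log2 difference of the 40 members was 0.01 in F against control, -0.12 in E against control and -0.17 in RE against control, with medians of -0.01, 0.04 and 0.00 over all transcripts.

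The smallest F test p of the members belonged to ENSMUST00000182770, a Rian transcript of 294 nt and 4 exons (unadjusted p = 0.0302, adjusted p = 0.803). It was at 1.80 and 2.06 FPKM in control 1 and 3 and near 0 in control 2, at 2.49, 3.75 and 4.04 in F, near 0 in all 3 E libraries, and at 4.15 in RE 4 and under 0.005 in the other RE libraries. F and E did not overlap, and the fitted difference of E against F was -5.11 ± 1.44 (adjusted p = 0.522), a value that depends on the pseudocount because E is near 0. It passed with only the 2 groups of that contrast in the fit (adjusted p = 0.0318) and without the 4 libraries that stood apart (adjusted p = 0.0048). Of all transcripts, 2 of 9358 passed in the first of these fits and 7 of 9065 in the second. Over the 12 libraries it held 43.2 scaled fragments, against 26235 for ENSMUST00000182981. Its level lies within a locus where many models overlap. For Mirg the smallest F test p was that of ENSMUST00000183068 (0.202, adjusted p = 0.938), a transcript with a mean of 0.331 FPKM.

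The levels of some single transcripts also differed between the 4 libraries and the other 8. These are levels and not shares of the gene sum. The sums were themselves higher in the 4, with medians of 961 against 784 FPKM for Meg3 and 431 against 355 for Rian. A separated level is therefore not by itself a change in the make-up of the gene. The ranges did not overlap for 6 of 13 Meg3 transcripts, 3 of 17 Rian transcripts and 0 of 10 Mirg transcripts, in all 9 of 40, where 2.92% of all tested lncRNA transcripts did so. The split was set from other lncRNAs of the same libraries, so this is given as a description with no test. ENSMUST00000124106 of Meg3 (1988 nt, 9 exons, from the first promoter) was at 45.7 FPKM in control 2, 32.6 in F 1, 33.3 in E 2 and 40.5 in RE 4, and near 0 in the other 8. NR_027651, a Meg3 model of 11427 nt that starts at the same promoter, was at 14.9 to 27.1 FPKM in the 8, at 8.31 in RE 4 and near 0 in control 2, F 1 and E 2. The pair was thus detected in nearly opposite sets of libraries. ENSMUST00000128178, of 457 nt, was at 2.64 to 36.8 FPKM in the 4 and 46.6 to 119.9 in the 8.

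ENSMUST00000129245 was at 211 to 316 FPKM in the 4 libraries and 120.2 to 157 in the 8. ENSMUST00000128458 was at 51.3 to 120.4 FPKM and 26.0 to 39.8, and ENSMUST00000150851 at 30.9 to 41.1 and 15.5 to 23.5. Among Rian transcripts, ENSMUST00000182370 was at 28.0 to 36.4 FPKM in the 4 and at most 7.96 in the 8. ENSMUST00000182119 was at 41.0 to 49.4 and 27.0 to 38.3, and ENSMUST00000183180 at 10.6 to 13.2 and 7.18 to 9.15. None of these 9 transcripts passed the test between study groups, each of which holds 1 of the 4 libraries.

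**Figure D4:**
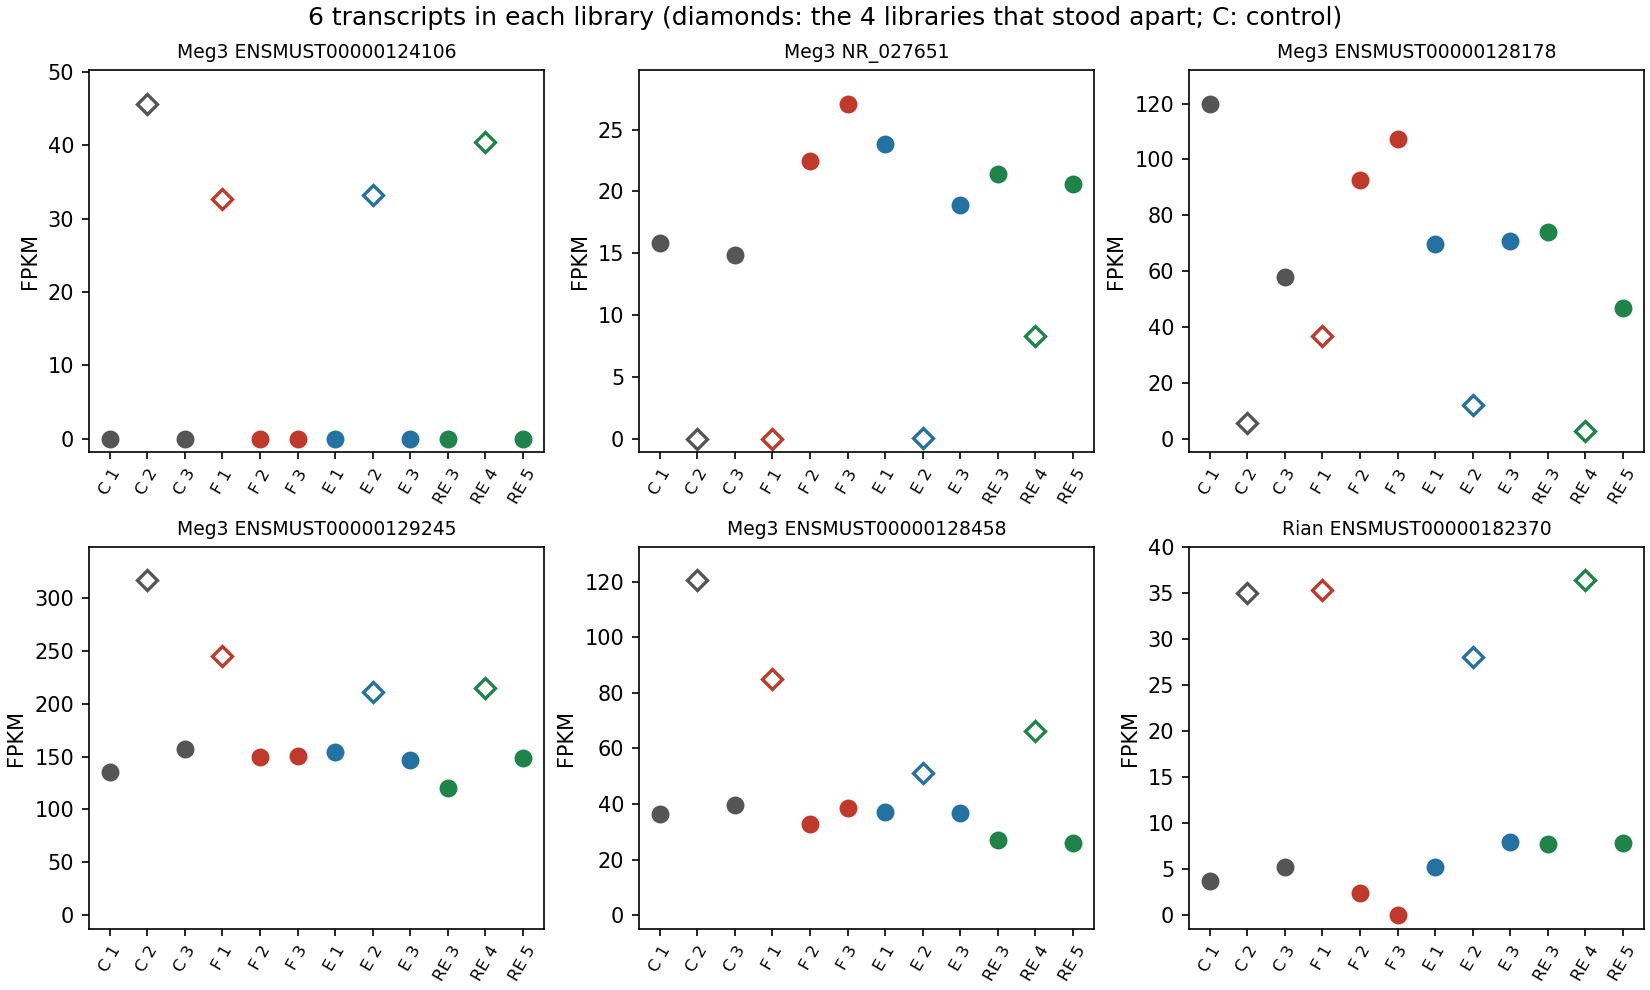
Level in FPKM (linear axes) of 5 Meg3 transcripts and 1 Rian transcript in each of the 12 libraries, coloured by group. The open diamonds (control 2, F 1, E 2 and RE 4) sit above the other 8 libraries for 4 of the transcripts and below them for NR_027651 and ENSMUST00000128178.

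Summed by start, the 5 Meg3 transcripts of the first promoter reached 227 FPKM on average and the 2 of the second promoter 306. The 7 that start elsewhere inside the locus reached 298.4, and the 3 with no exon model in the annotation used 12.6. The first-promoter sum was 173, 395 and 193 FPKM in control, 305, 189.5 and 196 in F, 196, 266 and 183 in E, and 157, 289 and 186 in RE. The 4 libraries (266 to 395 FPKM) lay above the other 8 (157 to 196) without overlap. The second-promoter sum was 274, 413 and 319 FPKM in control, 349, 292 and 309 in F, 307, 314 and 277 in E, and 239.8, 292 and 287 in RE. For these, the 4 (292 to 413) and the 8 (239.8 to 319) overlapped. By group, the first-promoter sum was 254 ± 123 FPKM in control, 230.1 ± 65.1 in F, 215 ± 44.7 in E and 211 ± 69.4 in RE (SD, n = 3), and the second-promoter sum 335 ± 70.7, 317 ± 28.9, 299 ± 19.4 and 273 ± 28.7 in that order. The sum of the other starts was 326, 379.7 and 291 FPKM in control, 382, 317 and 316 in F, 266.3, 284 and 283 in E, and 266.0, 233 and 238 in RE. Here every RE library lay below every library of the other groups, although RE 3 and E 1 nearly met, and both E and RE lay below all of control and F. The means were 332 ± 44.6 FPKM in control, 338 ± 37.6 in F, 278 ± 9.87 in E and 245 ± 17.9 in RE. Among all lncRNA gene sums, groups did not overlap for 11.9% in RE against control, 13.1% in RE against E and 10.2% in RE against F. For E against control and E against F it was 9.54% and 12.8%. The highest transcript among these other starts, ENSMUST00000126289, had a mean of 149 FPKM. The classes were formed here from the transcript models and not tested.

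The 3 genes varied together over the 12 libraries to different degrees. Pearson's r of the gene sums on the log2 scale was 0.81 for Meg3 and Rian (permutation p = 0.00187, adjusted over 3 pairs 0.00561; Spearman's rho 0.72, permutation p = 0.0107). It was 0.66 for Meg3 and Mirg (permutation p = 0.0167, adjusted 0.0251; rho 0.69, p = 0.0158) and 0.52 for Rian and Mirg (permutation p = 0.0836, adjusted 0.0836; rho 0.69, p = 0.0174). The p of each rho, adjusted over the 3 pairs, was 0.0174. The tests were two-sided. Without the 2 libraries farthest from the median of the first gene, r was 0.50, 0.62 and 0.66 for these pairs (n = 10). In the 8 libraries that did not stand apart, r was 0.35, 0.46 and 0.20 (exact permutation p = 0.381, 0.257 and 0.626, n = 8). The relations were thus weaker without the 4 libraries, which are too few for a value of their own. The 8 also span a narrower range, which can lower r, and with fewer libraries a small p is harder to reach. How far the relations rest on the 4 was therefore not settled. As deviations from the group means, r was 0.85, 0.79 and 0.53. Libraries share their depth and their tissue composition across the 3 genes.

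**Figure D5:**
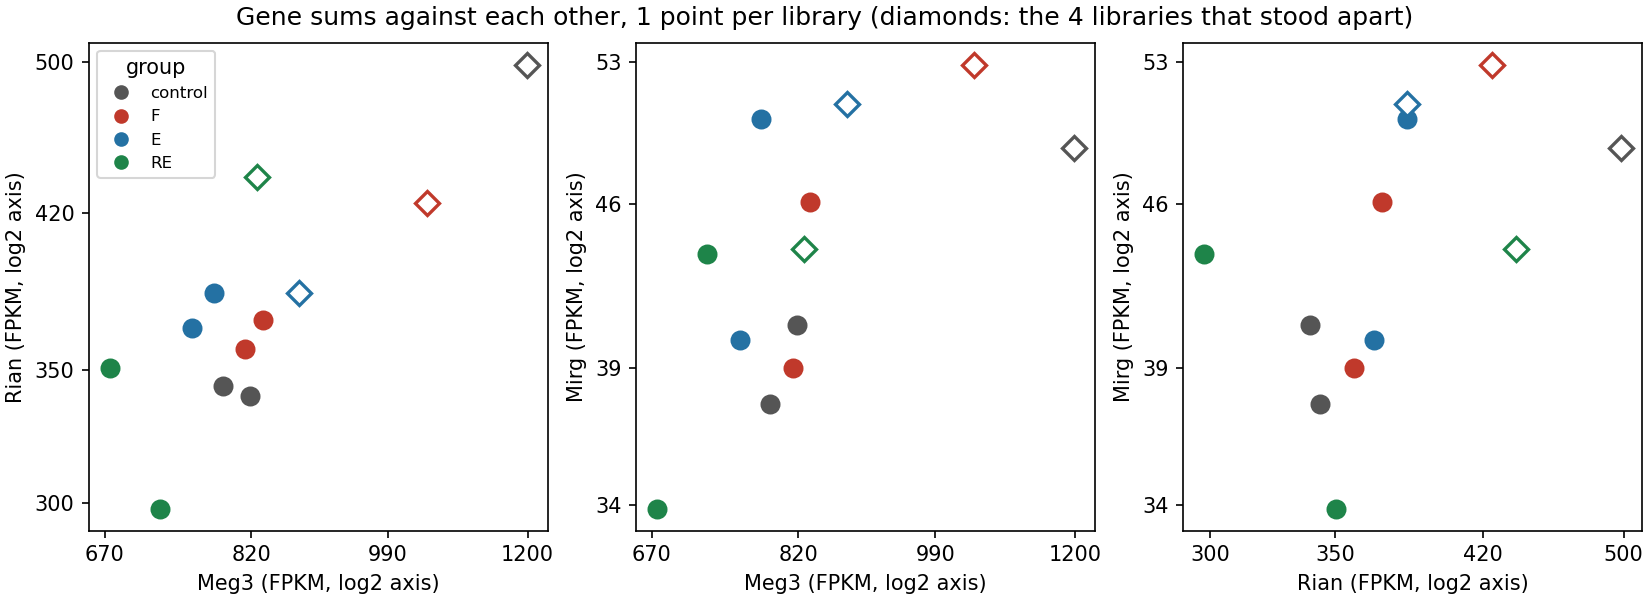
Gene sums of each pair of the 3 genes, 1 point per library on log2 axes in FPKM, coloured by group. The open diamonds (the 4 libraries that stood apart) hold the highest Rian values, E 2 by the least, and for Meg3 RE 4 lies among the filled circles. In the 8 filled circles alone r is 0.35 for Meg3 and Rian, 0.46 for Meg3 and Mirg and 0.20 for Rian and Mirg.

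The lncRNA table holds 67 further transcripts with a locus that starts in the domain, of which 23 were tested and 26 were listed at 0 in every library. Of these, 23 (4 tested) have only a locus that takes in Dio3 and runs past the end of the domain (chr12:109902180-110583075), and the table does not place them further. Of the 67, 9 are listed by a microRNA gene name, and all 9 were at 0. Their models are only 61 to 86 nt long, and these libraries were made to measure long RNA. The 0 values therefore do not show whether the microRNAs are made. The highest of the 67 was U59418 (1796 nt, mean 51.1 FPKM), which is among those with the locus that runs past Dio3. A transcript of Ppp2r5c is listed with the same locus, so U59418 may lie outside the domain. U59418 did not follow Meg3 in the 4 libraries, at 45.2 FPKM in control 2, 39.8 in F 1, 41.7 in E 2 and 53.0 in RE 4 and 50.6 to 57.8 in the others. Next were a transcript of XLOC_004871 (22.8 FPKM, 18.6 to 31.2) and ENSMUST00000183191 of Gm26945 (20.6 FPKM, 17.6 to 24.0). Both lie within the Rian locus and share its span and strand, so that reads of the 3 names may be divided differently by another count. None of the tested transcripts passed the adjusted test in any contrast.

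Dlk1, a membrane protein related to Notch ligands and the paternally expressed start of the domain (chr12:109452823-109463336), was much lower than the noncoding RNAs and far more variable. It was at 3.06, 14.1 and 5.29 FPKM in control, 11.0003, 6.29 and 1.59 in F, 9.28, 7.73 and 7.05 in E, and 0.770, 5.10 and 1.77 in RE. The difference of RE against E was -1.99 ± 0.75 (unadjusted p = 0.0208, adjusted p = 0.351). RE against control gave -1.61 ± 0.75 (adjusted p = 0.527), and for the maternal neighbour Meg3 the same contrasts gave -0.12 ± 0.19 and -0.31 ± 0.19. Markers of the hypothalamus, where Dlk1 is strongly expressed, were at 48.0 to 139.9 FPKM in RE, 141.8 to 163.2 in E and 106.0 to 332.9 in control, and their part in this value was not tested. Dio3, which inactivates thyroid hormone, had a mean of 0.64 FPKM, with 1.75 in control 2, 1.46 in F 1 and at most 0.692 in the others. Rtl1, a gene derived from a retrotransposon, had a mean of 0.387 FPKM, under the minimum for the test. The table gives it the same locus as the noncoding transcript 6430411K18Rik, which is transcribed from the other strand (mean of its RefSeq model 14.8 FPKM), and without strand their reads cannot be told apart.

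Back-splice junction reads gave a second readout of the loci. A circRNA is a closed loop recognised by reads that join a downstream exon end to an upstream exon start. The table held 5 circRNAs of Rian, 1 of Mirg and 0 of Meg3, with 18, 4 and 0 junction reads over all libraries, out of 7324 to 23446 junction reads per library. None reached the minimum of 10 reads for the edgeR test, in which 3241 circRNAs were tested and 0% passed in each contrast. The most frequent, a Rian circle (chr12:109620313-109637926), had 4 reads in E 2, 3 in RE 4 and 0 in the rest. The Mirg circle (chr12:109734563-109742290) had 2 reads in control 2 and 2 in E 2. At these counts no difference between groups was detectable.

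Other imprinted genes were set beside the 3 members through a list of 50 names, 49 of which the mRNA table holds. With a mean of at least 0.5 FPKM, 41 lines of 40 genes were tested, and 0 passed the adjusted test in any contrast, the smallest adjusted p being 0.0956 for Igf2 in RE against E. In RE against control, the mRNA table had 0.0666% of genes past the adjusted test and 9.65% at an unadjusted p under 0.05, and 13 of the 41 lines were in the latter class, 10 of them lower in RE. In all, 5 of the 41 lines were higher in RE than in control, where 45.7% of all genes were, and the median was -0.32 against -0.02 over all genes. The counts at an unadjusted p under 0.05 in the other contrasts were 3 in F against control (7.08% of all genes), 2 in E against control (5.13%), 10 in RE against E (10.4%), 5 in E against F (10.8%) and 5 in RE against F (7.03%), and the share of all genes past the adjusted test was 0.614% in RE against E, 0.0814% in E against F and 0% in the others. Nnat, a small membrane protein of neurons, was at 92.9, 160.6 and 124.1 FPKM in control and 44.6, 66.6 and 53.4 in RE (-1.18 ± 0.28, adjusted p = 0.132). Zdbf2, a zinc finger gene, was at 10.7, 14.1 and 12.01 FPKM in control and 5.999, 8.65 and 5.95 in RE (-0.84 ± 0.18, adjusted p = 0.114). With the term for the 4 libraries, Zdbf2, Nnat and Mest passed (adjusted p = 0.0415, 0.0433 and 0.0493). In that fit 167 of all 13517 mRNA genes passed in RE against control, so calls rose in general. The amygdala markers of the list fixed for this tissue summed to 80.8 to 118.8 FPKM in RE and 136.4 to 177.8 in control, and their part in these values was not tested.

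The 3 imprinted mRNA genes of highest level were Snrpn, a splicing protein (mean 331 FPKM), Gnas, the stimulatory G protein subunit (265), and Snurf, which shares its transcript with Snrpn (179). Snrpn was at 323 ± 38.7 FPKM in control, 349 ± 41.5 in F, 327 ± 31.9 in E and 324 ± 31.7 in RE. Gnas gave 283 ± 71.9, 308 ± 66.0, 248 ± 14.1 and 223 ± 29.5 FPKM in that order. Snurf gave 217 ± 62.1, 159.8 ± 44.9, 131 ± 17.0 and 208 ± 68.4 FPKM, and since its reads overlap those of Snrpn its values are uncertain. None passed in any contrast, the smallest adjusted p being 0.474 for Snurf in RE against E. Of the 41 lines, 31 had their highest library among the 4 that stood apart and 22 had it in control 2, which was also the highest library for Meg3 and Rian. The same count was not made over all mRNA genes, so it cannot be read as a trait of imprinted genes.

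By Pearson's r over the 12 libraries, the lncRNA genes most like Meg3, of 2910 compared, were Ctps2 (0.92), SH3d19 (0.90) and AK051424 (0.89), with means of 1.74 to 2.39 FPKM. The mRNA genes most like it, of 12499, were Pcdh8, a protocadherin of synapses (0.95), Cspg4, a proteoglycan of oligodendrocyte precursors (0.95), and Cers4, a ceramide synthase (0.95). For Rian they were BC023483 (0.92), 6330403K07Rik (0.91) and AK164857 (0.90) in the lncRNA table and Ptplad1 (0.95), Tmem106c (0.95) and Tspyl4 (0.95) in the mRNA table. For Mirg they were AK132502 (0.89), AK078412 (0.87) and Ctps2 (0.86), and Bhlhb9 (0.90), Erlec1 (0.89) and Pde7a (0.88). Rian was in place 30 among the lncRNA genes by likeness to Meg3, and Mirg in place 164. These are the highest of many values from libraries that share depth and composition, and they are given as descriptions.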

How the data were processed

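The 3 genes and the lists set beside them were chosen with earlier results of these data known. Each library held the ribosomal RNA-depleted RNA of 1 mouse (12 in all), prepared with a kit that keeps strand. Per the study's methods, reads were aligned to UCSC mm10 with HISAT2 2.0.4 and quantified with cuffdiff 2.2.1, and circRNAs were found with STAR 2.5.1b and DCC 0.4.4. In the submitters' notes the tools are CASAVA 1.8 and BWA and the build is human hg19, but 6012 of 6013 lncRNA transcripts with a gene ID in GENCODE M21 overlapped that gene on mouse GRCm38 (mm10). The authors deposited FPKM per lncRNA transcript and per mRNA gene. They also deposited a signal of fragments scaled by a library factor, used here for depth and, as an alternative, for edgeR. Division by the step between low values gave fragments, with 94.8% to 95.7% of low values whole within 0.05. For circRNAs the authors deposited a raw count of junction reads, and 12 further columns of per-sample values were not used.

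Gene sums and transcripts (mean of at least 0.1 FPKM) and mRNA genes (0.5) were tested with limma 3.58.1 with a mean trend on log2(FPKM + 0.1), over 12 libraries and 6 contrasts. A fold change on this scale understates the change of low genes. P-values are two-sided, with Benjamini-Hochberg adjustment within each contrast and table. Junction counts of at least 10 reads went into the quasi-likelihood test of edgeR 4.0.16 with TMM factors. Correlations used 100000 permutations over 12 libraries and every order over 8. Named were the gene sums, the 2 highest transcripts of each gene and the 1 of smallest F test p, any past the test, the circRNA of most reads per host, Dlk1, Rtl1, Dio3, other imprinted genes past the test or else the 3 highest, the 3 highest other transcripts of the domain and the 3 genes of highest r per table. Nnat, Zdbf2, Mest, Igf2, the imprinted lncRNAs elsewhere, the other transcripts with an unadjusted p under 0.05 and those that separated the 4 libraries were named after their values were seen. In simulated data for F against control (7910 gene sums), the limma step found 18% of the genes set to a 2-fold change and 54% of those set to 4-fold, and 4 calls were false. Promoters and microRNAs are from RefSeq tables (GRCm38).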

Additional observations from a re-analysis of the deposited data

How the results depend on the processing

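The 18 differences in gene sums were recomputed under 24 alternatives each, 432 values in all. Several alternatives can change the p-value of a difference but not the difference. These are the term for the 4 libraries, robust fitting, the filters on level and length, the 2 groups alone and leaving out a library outside the contrast. Fewer than 432 values could therefore turn sign. None passed the test, the smallest adjusted p was 0.435 (Meg3, RE against control, with a term for the 4 libraries), and 27 had the opposite sign; the cause was not tested. Opposite signs came with quantile normalization for Meg3 in F against control (0.13), Rian in RE against E (0.26) and Mirg in F against control (-0.083), and with a shift to a common median for Rian in RE against E (0.016) and Mirg in E against F (-0.052). With edgeR on recovered fragments the last was -0.082. Quantile normalization also moved Rian to -0.37, -0.63 and -0.37 in F, E and RE against control. Without the 4 libraries that stood apart, Meg3 was at 0.035 and Rian at 0.095 in F against control, and Rian at 0.13 in E against control and 0.040 in E against F. Leaving out 1 library at a time, the range was -0.16 to 0.15 for Meg3 in F against control. For Rian it was -0.11 to 0.17 in F against control, -0.13 to 0.14 in E against control, -0.26 to 0.067 in RE against control, -0.22 to 0.054 in RE against E, -0.072 to 0.050 in E against F and -0.25 to 0.030 in RE against F. For Mirg it was -0.15 to 0.059 in RE against control and -0.079 to 0.14 in E against F. The count of member transcripts past the test became 1, the Rian transcript ENSMUST00000182770, in E against F fitted on these 2 groups, and without the 4 libraries in E against control, RE against control, E against F and RE against F. Of all transcripts, 2 of 9358 passed in the first of these fits, and 7, 8, 7 and 3 of 9065 in the others in that order. Imprinted mRNA genes past the test became 3 in RE against control with the term for the 4 libraries, where 167 of all 13517 mRNA genes passed. They ranged from 0 to 1 in RE against E when 1 library was left out (Igf2, adjusted p = 0.0324 without control 2, where 140 of all 13479 passed). The correlations of Meg3 with Rian and with Mirg were 0.35 and 0.46 without the 4 libraries and no longer passed. The deviations of same-numbered libraries of different groups had correlations of -0.17 to 0.18, above 0.1 in 1 of 12 pairs. These values show no pairing by number, RE shares only the number 3 with the other groups, and a shared batch was not tested. With the replicate number as a block, 0 gene sums passed (smallest adjusted p 0.943) and no sign changed. The alternatives with the 4 libraries and with edgeR on fragments were chosen after seeing the data. Depth limits Mirg, with 669 to 1702 fragments per library, and the circRNAs most.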

Other observations

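Imprinted lncRNAs outside chromosome 12 were less abundant than Meg3 and Rian. Of a list of 16, the table holds 7 elsewhere and 2 within the Dlk1 to Dio3 domain. Of the 7, 6 were tested, and none passed the adjusted test in any contrast. Peg13, of the imprinted cluster around Trappc9, had a mean of 58.2 FPKM and ran from 50.6 FPKM in control 3 to 66.0 in E 2. Ipw, a noncoding RNA of the cluster around Snrpn, had a mean of 20.9 FPKM and its lowest libraries were F 1 (8.36) and control 1 (13.4). Kcnq1ot1, which silences genes of the Kcnq1 cluster in cis, had a mean of 7.46 FPKM and ran from 6.46 to 8.27. Airn, which silences Igf2r in cis, was at 2.93, 1.77 and 1.94 FPKM in E and 1.03, 1.95 and 0.669 in RE, and these groups overlapped (unadjusted p = 0.0229, adjusted p = 0.566 with limma). H19, a neighbour of Igf2, had a mean of 0.176 FPKM.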
